A study of Homo sapiens with 8 samples.

Results

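The 9 genes described here encode the core of B-cell receptor signalling: the receptor chains CD79A and CD79B, the co-receptors CD22 and CD81, the kinases LYN, SYK and BTK, the adaptor BLNK and the enzyme PLCG2. They were chosen by symbol for their place in the pathway, and they are 9 of the 15597 genes listed in every library. They were measured by RNA sequencing in SUDHL-4 cells, an established human cell line grown from a diffuse large B-cell lymphoma that resembles germinal-centre B cells. The groups were FDX1-OE cells, which overexpress FDX1, given 5 nM elesclomol (ES) for 48 h, FDX1-OE cells given DMSO for 48 h, control cells of wild-type genotype given 5 nM ES for 48 h, and control cells given DMSO for 48 h. Each of the 4 groups had 2 libraries. ES is a small molecule that carries copper into cells, and FDX1 is ferredoxin 1, a mitochondrial iron-sulfur protein. The labels do not say which vector the control cells carried, whether FDX1-OE cells were a pool or a clone, or whether replicates were separate cultures, so p-values reflect only how far these libraries spread, which may be technical.

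The B-cell receptor binds antigen through its immunoglobulin and signals through the paired CD79A and CD79B chains, whose tails carry tyrosines that LYN phosphorylates. SYK docks on these tyrosines, phosphorylates the adaptor BLNK, and so brings BTK and PLCG2 together. PLCG2 then cleaves a membrane lipid into the messengers that release calcium and activate protein kinase C. CD81 is part of the co-receptor that lowers the threshold of signalling. CD22, phosphorylated by LYN, recruits the phosphatase encoded by PTPN6, which damps the signal.

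FPKM, the unit used throughout, is reads scaled by gene length and by library total. Library totals lay between 33435438 and 35883528 reads, and the members held between 688 reads (BLNK, lowest library) and 31171 reads (CD79A, highest library). FDX1 averaged 83.7 ± 1.65 FPKM in FDX1-OE cells in ES and 71.1 ± 1.79 FPKM in FDX1-OE cells in DMSO, against 21.3 ± 0.025 FPKM in control cells in ES and 23.9 ± 2.40 FPKM in control cells in DMSO (SD, n = 2 each), so the libraries matched their FDX1 labels. All 9 B-cell markers were detected, though EBF1 reached only 0.994 to 1.28 FPKM. Of the markers of other cells listed, 7 of 9 T- and NK-cell genes, 7 of 9 myeloid genes and 9 of 11 epithelial and stromal genes stayed under 1 FPKM in every library, and so did 3 of 8 plasma-cell genes (PRDM1, SDC1 and IRF4). The other 5 were detected, from TNFRSF17 at 5.29 to 17.5 FPKM to JCHAIN at 478 to 786 FPKM. Under ES 5 of these 5 rose in FDX1-OE cells, where 37% of all tested genes rose. Their median log2 change there was 0.47, beside 0.09 over all genes tested. When libraries were scaled by their median gene ratio, the RLE method, 4 rose there. In control cells 3 rose, where 25.5% of all tested genes did. In ES 3 were higher in FDX1-OE than in control cells and 2, JCHAIN and XBP1, were lower. Of all tested genes 13.6% were higher and 7.78% lower there, and RLE scaling left 2 and 2 of the 5. XBP1 was already lower in FDX1-OE cells in DMSO, by a log2 difference of -0.51, against -0.24 in ES. The part of these plasma-cell genes in the members' changes was not tested.

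The promoters of CD79A and BLNK, which rose under ES in FDX1-OE cells, and of BTK, which fell there, are shown because these members moved in opposite directions; BLNK and BTK were not called in control cells. Each window holds the 250 bases before a RefSeq start site (GRCh38.p14), 5′ to 3′ on the gene's strand. CD79A lies at chr19:41877029-41877278 on the plus strand, BLNK at chr10:96271570-96271819 on the minus strand, and the first start site of BTK at chrX:101390797-101391046 on the minus strand. Capitals mark letters of 3 motifs: the E-box CAGGTG (or CACCTG, its reverse complement), the ETS motif of the PU.1 type AGGAAGT (or ACTTCCT), and the kappa-B consensus.
CD79A: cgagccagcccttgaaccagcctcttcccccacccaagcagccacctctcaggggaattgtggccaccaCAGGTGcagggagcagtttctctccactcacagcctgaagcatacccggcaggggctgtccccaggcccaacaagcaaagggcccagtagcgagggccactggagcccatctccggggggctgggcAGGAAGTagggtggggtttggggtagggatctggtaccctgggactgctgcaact
BLNK: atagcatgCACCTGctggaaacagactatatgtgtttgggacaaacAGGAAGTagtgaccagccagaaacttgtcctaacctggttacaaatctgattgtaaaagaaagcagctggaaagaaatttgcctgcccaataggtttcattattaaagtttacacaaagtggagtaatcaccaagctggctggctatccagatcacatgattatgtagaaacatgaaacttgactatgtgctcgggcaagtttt
BTK: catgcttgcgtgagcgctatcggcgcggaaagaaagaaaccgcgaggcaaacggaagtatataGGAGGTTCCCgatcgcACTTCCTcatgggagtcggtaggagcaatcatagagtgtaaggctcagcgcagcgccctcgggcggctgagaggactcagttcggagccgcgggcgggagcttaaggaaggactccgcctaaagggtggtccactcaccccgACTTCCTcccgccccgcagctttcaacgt

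The CD79A window held 1 E-box, beginning 181 bases before the start, and 1 ETS motif, beginning 55 bases before it. In the BLNK window the E-box began at 242 bases and the ETS motif at 204 bases before the start. The BTK window held 2 ETS motifs, at 171 and 29 bases, and 1 kappa-B match at 187 bases, and no E-box. The second of 3 start sites of SYK, which was not called under ES, held an E-box at 204 bases. It also held 2 ETS motifs at 81 and 49 bases. The window of PLCG2, also not called under ES, held an E-box at 139 bases. The window of CD22, which rose under ES, held none of these motifs, nor did the other windows of SYK and BTK. On both strands of 35116 windows of this length, the E-box was present in 17.5%, the ETS motif in 7.01%, the kappa-B consensus in 9.96%, and the E-box together with the ETS motif in 1.19%. The EBF1-type motif (TCCC and GGGA parted by 2 bases), the octamer (ATTTGCAT) and the paired motif of interferon regulatory factors (GAAA and GAAA parted by 2 bases) were in none of the 9 windows that the table held for 6 members (CD79A, CD22, SYK, BTK, BLNK and PLCG2), and they were in 1.06%, 1.63% and 3.02% of all windows. These matches are letters in a window and describe no binding.

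In FDX1-OE cells ES raised the RNA of both receptor chains, of CD22, of LYN and of BLNK, and lowered that of BTK, all by under 1.5-fold. Thus 6 of 9 members were called (5 rose, 1 fell), against 56.2% of the 9805 genes tested (37% higher, 19.2% lower), so the share of members called was near that of all genes. A call is an adjusted p under 0.05 in limma on log2(FPKM + 1), a scale on which low genes' changes are understated. Folds are of FPKM + 1 as well. The members' median log2 change was 0.26, beside 0.09 over all genes tested. In bulk libraries fewer cells of a type and less RNA per cell cannot be told apart. RLE scaling, which sets each library to the median ratio of its genes, moved the median of all genes by -0.13 in this comparison. It left 2382 genes higher and 3105 lower where the main scaling gave 3632 and 1878, and among the members 4 rose (CD79B was lost) and 2 fell (SYK joined BTK).

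In control cells the same dose raised 3 of 9 members, CD79A, CD22 and LYN, and lowered none by the test, against 38.4% of all genes called (25.5% higher, 12.9% lower), again a share near that of all genes. The median log2 change of the members was 0.06, beside 0.06 over all genes. With RLE scaling 1 member rose (CD79A) and 2 fell (SYK and BTK), beside 1694 higher and 2124 lower of the 9805 genes tested. The 2 ES comparisons share no library, and whether a member responded differently in them was tested with the interaction, the change under ES in FDX1-OE cells less the change in control cells. The interaction called 0 of 9 members in limma, against 4.3% of all genes (3.25% higher, 1.05% lower), with 3 members at an unadjusted p under 0.05 (CD79B, LYN and BLNK) and 0 called by voom on recovered reads. Its log2 values over the members had a median of 0.14 beside 0.03 over all genes, or 0.08 beside -0.02 with RLE scaling. Hence a larger response in FDX1-OE cells is not shown for any member.

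Between FDX1-OE and control cells in DMSO, 0 of 9 members were called in limma, against 0.51% of all genes (0.428% higher, 0.0816% lower). CD79B alone had an unadjusted p under 0.05, and voom on recovered reads also called 0. In ES, LYN, BLNK and PLCG2 were higher in FDX1-OE cells, 3 of 9 members against 21.4% of all genes (13.6% higher, 7.78% lower). The members' median log2 difference was 0.05, beside 0.03 over all genes. The comparisons in DMSO and in ES share their libraries with the ES comparisons, so their values stand side by side and were not correlated.

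**Figure D1:**
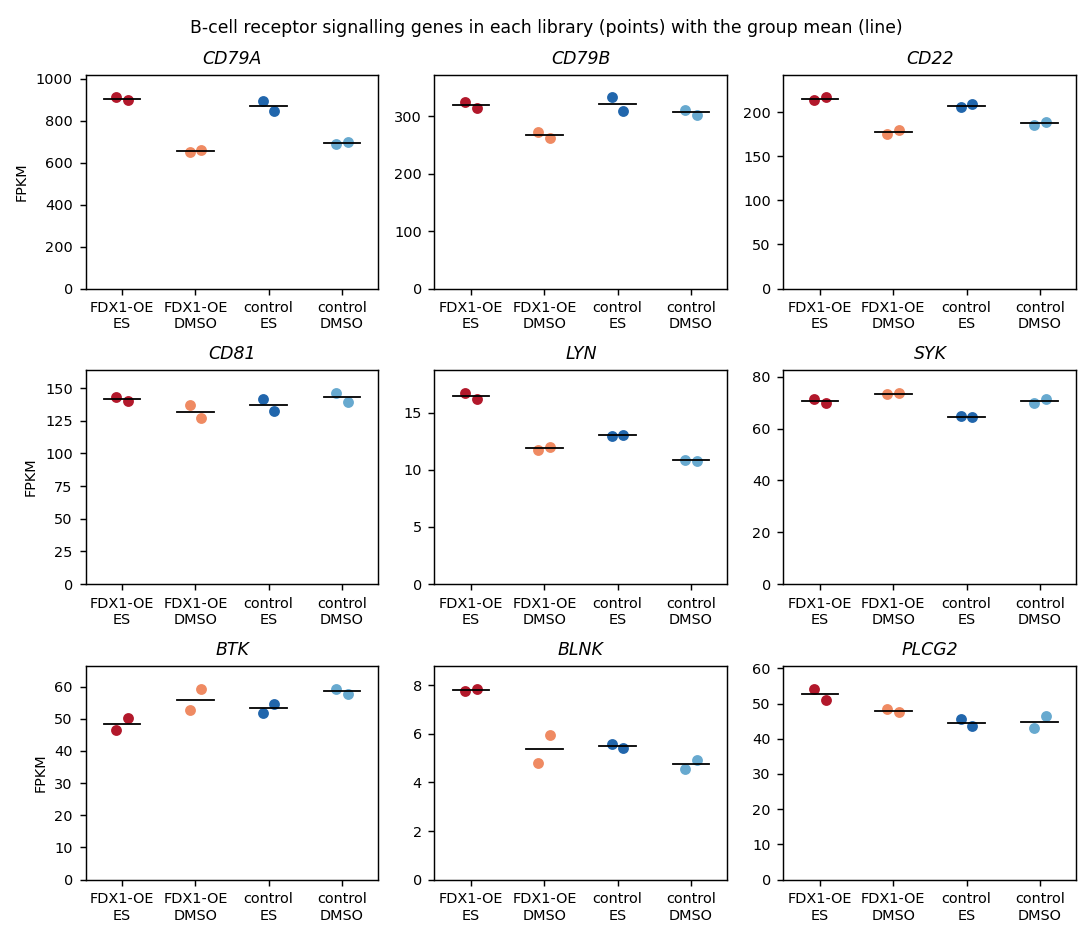
FPKM of each of the 9 genes (vertical axes, starting at 0) in the 8 libraries, as points, with each group's mean as a line; groups run from FDX1-OE in ES to control in DMSO. CD79A, CD22 and LYN stand higher in ES than in DMSO in both kinds of cell, and both FDX1-OE libraries in ES have the highest LYN, BLNK and PLCG2.

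The receptor chains came first in level. CD79A had 909.9 and 897 FPKM in FDX1-OE cells in ES, 650.5 and 659 FPKM in FDX1-OE cells in DMSO, 894 and 846 FPKM in control cells in ES, and 690.0 and 698 FPKM in control cells in DMSO. The ES libraries lay above the DMSO libraries in both kinds of cell, without overlap. The rise was 1.38-fold in FDX1-OE cells (95% interval 1.29 to 1.48; log2 change 0.46 ± 0.05 SE, limma adjusted p = 1.65e-05) and 1.25-fold in control cells (1.17 to 1.34; log2 change 0.33 ± 0.05, limma adjusted p = 0.000467). CD79A kept its call in all 12 alternatives of each ES comparison. The interaction was 0.14 (95% interval -0.0039 to 0.28; limma adjusted p = 0.235), and FDX1-OE cells differed from control cells by -0.08 in DMSO (adjusted p = 0.775) and 0.05 in ES (adjusted p = 0.423).

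CD79B, its partner in the heterodimer, had 324 and 314 FPKM in FDX1-OE cells in ES, 273 and 261 FPKM in FDX1-OE cells in DMSO, 332 and 308 FPKM in control cells in ES, and 311 and 302 FPKM in control cells in DMSO. The groups parted in FDX1-OE cells and overlapped in control cells. CD79B rose 1.2-fold under ES in FDX1-OE cells (log2 change 0.26 ± 0.05, limma adjusted p = 0.0017), a call that RLE scaling removed (0.11, adjusted p = 0.0841). In control cells the log2 change was 0.06 (adjusted p = 0.367), and -0.03 with RLE scaling. In DMSO both FDX1-OE libraries lay under both control libraries, a log2 difference of -0.20 with an unadjusted limma p of 0.00282 and an adjusted p of 0.199. In ES the FDX1-OE libraries lay within the range of the control libraries, and the difference was -0.0042 within an interval of -0.12 to 0.11. The interaction was 0.20 (interval 0.03 to 0.36, adjusted p = 0.148). Part of the exons of CD79B, 288 bases in GENCODE 29, overlaps the gene AC127029.3 on the same strand, so reads there could be shared.

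Within a library the ratio of CD79A to CD79B does not depend on scaling. It was 2.81 and 2.85 in FDX1-OE cells in ES and 2.39 and 2.52 in FDX1-OE cells in DMSO. In control cells it was 2.69 and 2.74 in ES and 2.22 and 2.31 in DMSO. Every ES library had a higher ratio than every DMSO library, so the transcripts of the paired chains changed unequally.

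Of the co-receptors, CD22, a sialic acid-binding lectin with inhibitory tyrosine motifs, followed CD79A. It had 214 and 217 FPKM in FDX1-OE cells in ES, 175 and 180.0 FPKM in FDX1-OE cells in DMSO, 206 and 209 FPKM in control cells in ES, and 186 and 189 FPKM in control cells in DMSO. No ES group overlapped its DMSO group. The rise in FDX1-OE cells was 1.21-fold (log2 change 0.28 ± 0.04, limma adjusted p = 0.000453) and kept its call in all 12 alternatives. In control cells it was 1.11-fold (log2 change 0.15 ± 0.04, limma adjusted p = 0.0259), and this call ended under RLE scaling (0.06, adjusted p = 0.341), without the mean trend (adjusted p = 0.0678), when only the 4 libraries compared were fitted (adjusted p = 0.0612), and without any 1 of those 4 libraries (adjusted p 0.0637 to 0.112). FDX1-OE and control cells differed by 0.05 in ES, or -0.0018 with RLE scaling, and by -0.08 in DMSO, and neither difference was called (adjusted p = 0.442 and 0.801).

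CD81, a tetraspanin, had 144 and 140.4 FPKM in FDX1-OE cells in ES, 137 and 127 FPKM in FDX1-OE cells in DMSO, 142 and 132 FPKM in control cells in ES, and 146 and 139 FPKM in control cells in DMSO. It passed no comparison. Its log2 change under ES was 0.11 in FDX1-OE cells (95% interval -0.02 to 0.23, limma adjusted p = 0.134), or -0.04 with RLE scaling, and -0.06 in control cells (-0.19 to 0.07, adjusted p = 0.423). Its highest library had 1.154 times the FPKM of its lowest, next to 1.144 times for SYK, the narrowest ranges among the members.

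The 3 kinases parted. LYN, the Src-family kinase that acts first on the receptor and also on CD22, had 16.7 and 16.2 FPKM in FDX1-OE cells in ES, 11.7 and 12.0 FPKM in FDX1-OE cells in DMSO, 12.9 and 13.1 FPKM in control cells in ES, and 10.9 and 10.8 FPKM in control cells in DMSO. The 4 groups did not overlap, and FDX1-OE cells in ES stood highest. LYN rose 1.36-fold under ES in FDX1-OE cells (log2 change 0.44 ± 0.06, limma adjusted p = 0.000118) and 1.18-fold in control cells (0.24 ± 0.06, limma adjusted p = 0.00861; 0.0519 with RLE scaling). In ES it was 1.25-fold higher in FDX1-OE than in control cells (0.32 ± 0.06, limma adjusted p = 0.00462), a call kept in all 12 alternatives. In DMSO the difference was 0.12 (adjusted p = 0.742), and the interaction was 0.20 (interval 0.02 to 0.38, adjusted p = 0.191).

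SYK, the kinase that docks on the phosphorylated chains, had 71.3 and 70.0 FPKM in FDX1-OE cells in ES, 73.1 and 73.7 FPKM in FDX1-OE cells in DMSO, 64.7 and 64.4 FPKM in control cells in ES, and 70.0 and 71.4 FPKM in control cells in DMSO. ES libraries lay under DMSO libraries in control cells by a log2 change of -0.13 (interval -0.23 to -0.02), which missed the threshold (limma adjusted p = 0.0519). That value passed with RLE scaling (-0.22, adjusted p = 0.00502), when low genes were kept (adjusted p = 0.0195) and with voom (adjusted p = 0.0413). In FDX1-OE cells the change was -0.06 (adjusted p = 0.336), against -0.20 with RLE scaling (adjusted p = 0.0047). In ES, SYK differed by 0.13 between FDX1-OE and control cells (adjusted p = 0.0781), a value called only when low genes were kept in the test (adjusted p = 0.0314).

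BTK, the Tec-family kinase that activates PLCG2 and is the target of ibrutinib, had 46.5 and 50.3 FPKM in FDX1-OE cells in ES, 52.6 and 59.2 FPKM in FDX1-OE cells in DMSO, 51.9 and 54.6 FPKM in control cells in ES, and 59.4 and 57.7 FPKM in control cells in DMSO. The ES libraries lay under the DMSO libraries of the same cells. BTK fell to 0.87-fold in FDX1-OE cells (log2 change -0.20 ± 0.07, limma adjusted p = 0.0248). The call was lost without FDX1-OE DMSO replicate 2 (-0.12, adjusted p = 0.226), without FDX1-OE ES replicate 1 (-0.15, adjusted p = 0.157) and when low genes were kept (0.0647). In control cells the change was -0.13 (adjusted p = 0.134), or -0.22 with RLE scaling (adjusted p = 0.0212). FDX1-OE cells differed from control cells by -0.13 in ES (adjusted p = 0.176) and by -0.07 in DMSO (adjusted p = 0.936).

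The ratio of LYN to SYK, both in FPKM, was 0.234 and 0.231 in FDX1-OE cells in ES, 0.160 and 0.163 in FDX1-OE cells in DMSO, 0.1998 and 0.203 in control cells in ES, and 0.156 and 0.151 in control cells in DMSO. LYN over BTK was 0.359 and 0.321 in FDX1-OE cells in ES, 0.222 and 0.203 in FDX1-OE cells in DMSO, 0.249 and 0.239 in control cells in ES, and 0.183 and 0.187 in control cells in DMSO. For both ratios the 4 groups kept apart, and FDX1-OE cells in ES were highest. Even there SYK had over 4 times the FPKM of LYN, so LYN stayed the kinase with the lowest level.

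**Figure D2:**
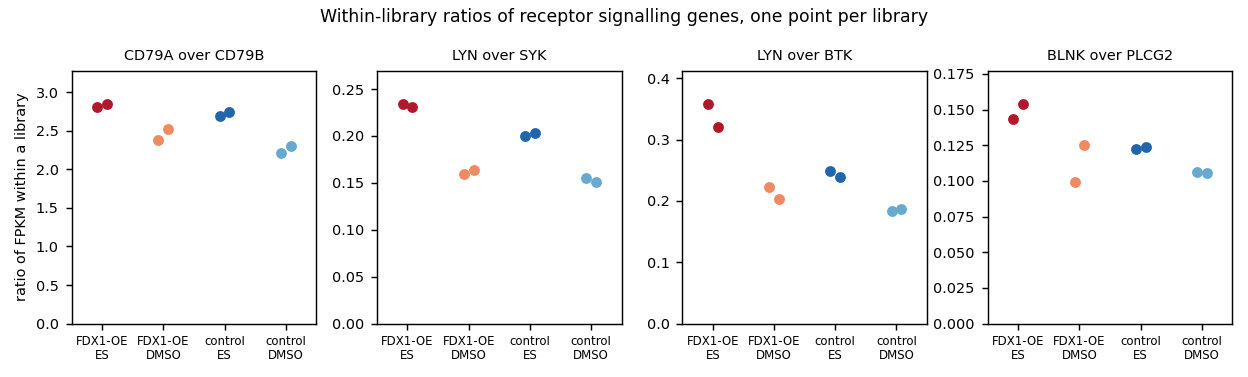
Ratios of FPKM within a library (vertical axes, starting at 0), 1 point for each of the 8 libraries, for CD79A over CD79B, LYN over SYK, LYN over BTK and BLNK over PLCG2. In the first 3 panels every ES library lies above every DMSO library; in the fourth, FDX1-OE DMSO replicate 2 (0.125) lies just above the control ES libraries (0.122 and 0.124).

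BLNK, the adaptor that SYK phosphorylates, had the lowest level of the members and the widest range. It had 7.77 and 7.86 FPKM in FDX1-OE cells in ES, 4.80 and 5.96 FPKM in FDX1-OE cells in DMSO, 5.57 and 5.40 FPKM in control cells in ES, and 4.56 and 4.93 FPKM in control cells in DMSO. Both FDX1-OE libraries in ES stood above all 6 others. Under ES, BLNK rose 1.39-fold in FDX1-OE cells (interval 1.21 to 1.59; log2 change 0.47 ± 0.09, limma adjusted p = 0.00114), called in all 12 alternatives. In control cells the log2 change was 0.18 (adjusted p = 0.141). In ES, BLNK was 1.36-fold higher in FDX1-OE than in control cells (log2 difference 0.44 ± 0.09, limma adjusted p = 0.00686), and without control ES replicate 2 the adjusted p was 0.0516. The interaction was 0.30 (interval 0.02 to 0.57, adjusted p = 0.199), and the DMSO difference was 0.15 (adjusted p = 0.832).

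PLCG2, the phospholipase at the end of this chain, had 54.25 and 51.0 FPKM in FDX1-OE cells in ES, 48.4 and 47.5 FPKM in FDX1-OE cells in DMSO, 45.6 and 43.5 FPKM in control cells in ES, and 42.9 and 46.5 FPKM in control cells in DMSO. The FDX1-OE libraries lay above the control libraries in both treatments, and the control groups overlapped each other. PLCG2 was 1.18-fold higher in FDX1-OE than in control cells in ES (log2 difference 0.23 ± 0.06, limma adjusted p = 0.0196). RLE scaling removed that call (0.18, adjusted p = 0.0517), as did leaving out control ES replicate 2 or FDX1-OE ES replicate 1 (both adjusted p = 0.126). Under ES its log2 change was 0.13 in FDX1-OE cells (adjusted p = 0.0818; 0.0455 with voom; -0.01 with RLE scaling) and -0.0045 in control cells (adjusted p = 0.96). BLNK over PLCG2 was 0.143 and 0.154 in FDX1-OE cells in ES, 0.0993 and 0.125 in FDX1-OE cells in DMSO, 0.122 and 0.124 in control cells in ES, and 0.106 and 0.106 in control cells in DMSO.

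**Figure D3:**
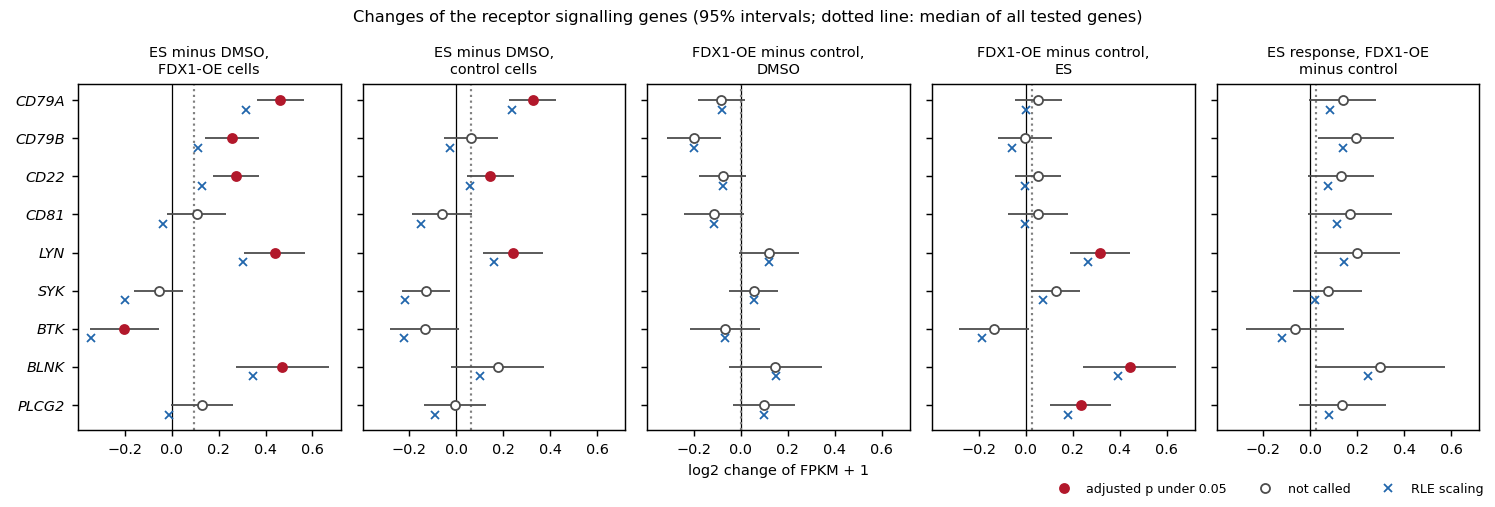
Change of log2(FPKM + 1) of each gene (rows) in 5 comparisons, with 95% intervals from limma; filled points are called at an adjusted p under 0.05, open points are not, crosses are values with RLE scaling, and dotted lines mark the median of all tested genes. CD79A, CD22 and LYN are filled in both ES panels, and no point is filled for FDX1-OE minus control in DMSO or for the ES response of FDX1-OE minus control cells.

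By level per length, the members ran from CD79A through CD79B, CD22, CD81, SYK, BTK, PLCG2 and LYN to BLNK in 6 libraries. In both FDX1-OE libraries in ES, PLCG2 stood above BTK. In control cells in DMSO, 99.5% of the listed genes lay below CD79A, 93.8% below SYK, 68.5% below LYN and 55.2% below BLNK. No other neighbours in this order changed places in any library. The number of listed genes at 0 FPKM also differed by group, at 1593 and 1558 in FDX1-OE cells in ES, 2642 and 2664 in FDX1-OE cells in DMSO, 2188 and 2303 in control cells in ES, and 2720 and 2601 in control cells in DMSO, and its part in the members' changes was not tested. The summed level of the 9 listed myeloid markers moved with LYN and BLNK, at 36.9 to 40.3 FPKM in FDX1-OE cells in ES, 7.12 to 8.18 FPKM in FDX1-OE cells in DMSO, 12.5 to 16.7 FPKM in control cells in ES and 4.13 to 4.35 FPKM in control cells in DMSO, and its part in their changes was not tested. CD68 and FCER1G made up nearly all of it, while the defining genes CD14, LYZ, CSF1R and MPO stayed under 0.3 FPKM in every library.

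Around the members, 8 lists hold 170 other genes of the pathway, of which 147 were tested. Genes can pass the filter of 1 FPKM in 2 libraries through the ES libraries alone, which favours risen genes in these counts. In FDX1-OE cells 61 of these rose and 21 fell under ES, or 55.8%, and with RLE scaling 39 rose and 43 fell. In control cells 46 rose and 16 fell, or 42.2%, and 31 and 32 with RLE scaling. FDX1-OE cells in ES had 31 higher and 11 lower than control cells in ES, or 28.6% (24 and 20 with RLE scaling). All of these shares lie near those of all tested genes, except that 28.6% stands somewhat above 21.4%. With RLE scaling all tested genes had 2382 higher and 3105 lower under ES in FDX1-OE cells and 1694 and 2124 in control cells. Between FDX1-OE and control cells in ES they had 978 higher and 1273 lower. The interaction called 10 of the 147, all positive (6.8%), where 3.25% of all tested genes were called positive and 1.05% negative. With RLE scaling it called 10 positive and 5 negative, beside 251 positive and 274 negative over all tested genes.

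Between FDX1-OE and control cells in DMSO, 1 of the 147 pathway genes was called, a share of 0.68% beside 0.51% of all tested genes. It belongs to the inhibitory arm. PTPN6, the phosphatase that CD22 recruits, had 4.88 and 4.09 FPKM in FDX1-OE cells in DMSO and 6.75 and 7.35 FPKM in control cells in DMSO. In ES it had 2.88 and 3.09 FPKM in FDX1-OE cells and 5.89 and 6.02 FPKM in control cells. It was lower in FDX1-OE cells in both treatments (log2 difference -0.56, limma adjusted p = 0.0163 in DMSO; -0.81, adjusted p = 0.000236 in ES), without overlap. Of 23 tested inhibitory receptors, phosphatases and ligases, 13 rose and 5 fell under ES in FDX1-OE cells (10 and 6 with RLE scaling), where 37% of all tested genes rose and 19.2% fell. In control cells 11 rose and 5 fell (7 and 7 with RLE scaling), beside 25.5% and 12.9% of all tested genes. CSK, the kinase that holds Src-family kinases such as LYN inactive, fell to 147 and 140 FPKM in FDX1-OE cells in ES, against 213 and 199 FPKM in FDX1-OE cells in DMSO, and to 154 and 144 FPKM in control cells in ES, against 205 and 216 FPKM in control cells in DMSO. SIGLEC10, another inhibitory lectin, fell as well (log2 change -0.62 in FDX1-OE and -0.43 in control cells). TNFAIP3, which restrains NF-kB, stayed under 1 FPKM in every DMSO library and passed the filter only through ES libraries. Its log2 changes under ES (1.397 in FDX1-OE and 0.71 in control cells) are therefore given as description only. FCRL5, an inhibitory receptor, reached 1 FPKM only in FDX1-OE cells in ES. The counts of risen genes in this list thus include genes let in by their ES values.

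Among 12 co-receptors and activating surface proteins, 6 rose and 2 fell under ES in FDX1-OE cells (4 and 4 with RLE scaling), and 4 rose and 1 fell in control cells (3 and 2), against the same shares of all tested genes. CD40, the receptor for T-cell help, had 43.2 and 42.1 FPKM in FDX1-OE cells in ES and 18.3 and 17.1 FPKM in FDX1-OE cells in DMSO. In control cells it had 28.3 and 27.4 FPKM in ES and 19.1 and 19.3 FPKM in DMSO. Its interaction passed the test (0.71 ± 0.08, limma adjusted p = 0.00268), and so did that of CD38 (0.40, adjusted p = 0.0258). CD180, a Toll-like surface protein, fell under ES in FDX1-OE cells (log2 change -0.45, limma adjusted p = 0.000403).

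Of 34 other kinases and adaptors, 13 rose and 2 fell under ES in FDX1-OE cells, and 9 rose and 2 fell in control cells. RLE scaling turned this balance, to 8 and 11 in FDX1-OE cells and 6 and 8 in control cells. The main counts of risen genes are near the 37% and 25.5% of all tested genes, of which 19.2% and 12.9% fell. BANK1, a scaffold that binds LYN, had 5.46 and 5.81 FPKM in FDX1-OE cells in ES and 1.63 and 1.52 FPKM in FDX1-OE cells in DMSO, against 3.34 and 3.30 FPKM in control cells in ES and 1.76 and 1.82 FPKM in control cells in DMSO. Its interaction was called (0.73 ± 0.11, limma adjusted p = 0.0079). DAPP1, an adaptor that binds phosphoinositides, rose under ES from a mean of 9.85 to 19.8 FPKM in FDX1-OE cells. In control cells DAPP1 rose from 9.18 to 14.6 FPKM. The actin regulator WAS fell in both (log2 change -0.34 in FDX1-OE and -0.22 in control cells).

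Downstream of PLCG2 genes moved both ways, and in FDX1-OE cells the balance of risen and fallen genes turned with RLE scaling in each of the 4 branches. In the branch of protein kinase C and NF-kB kinases 6 of 19 rose and 4 fell in FDX1-OE cells (4 and 5 with RLE scaling), and 6 rose and 3 fell in control cells (4 and 4). PRKCD, a kinase of the protein kinase C family, fell (log2 change -0.58 in FDX1-OE and -0.27 in control cells), and RBCK1, a subunit of the linear ubiquitin ligase, rose (0.76 in FDX1-OE and 0.55 in control cells).

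In the RAS and ERK branch 8 of 19 rose and 5 fell in FDX1-OE cells (5 and 8 with RLE scaling), and 7 rose and 4 fell in control cells (4 and 6). The RAS activators split. RASGRP3 rose from a mean of 1.63 to 7.81 FPKM in FDX1-OE cells and from 1.84 to 4.997 FPKM in control cells. RASGRP1 fell (log2 change -0.44 in FDX1-OE and -0.22 in control cells). Of 21 genes of calcium release and NFAT, 8 rose and 1 fell in FDX1-OE cells (4 and 5 with RLE scaling), and 4 rose and 0 fell in control cells (3 and 1), where the median log2 change of the list was -0.0036. In FDX1-OE cells the calcium channel ITPR1 rose (log2 change 0.68) and ITPR3 fell (-0.28, adjusted p = 0.0262). Of 17 genes of the PI3K and AKT branch 5 rose and 2 fell in FDX1-OE cells (3 and 4 with RLE scaling), among them the catalytic subunit PIK3CA (0.42) and the regulatory subunit PIK3R2 (-0.40), and 3 rose and 1 fell in control cells (2 and 4). Of all tested genes, 37% rose and 19.2% fell in FDX1-OE cells, and 25.5% rose and 12.9% fell in control cells.

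**Figure D4:**
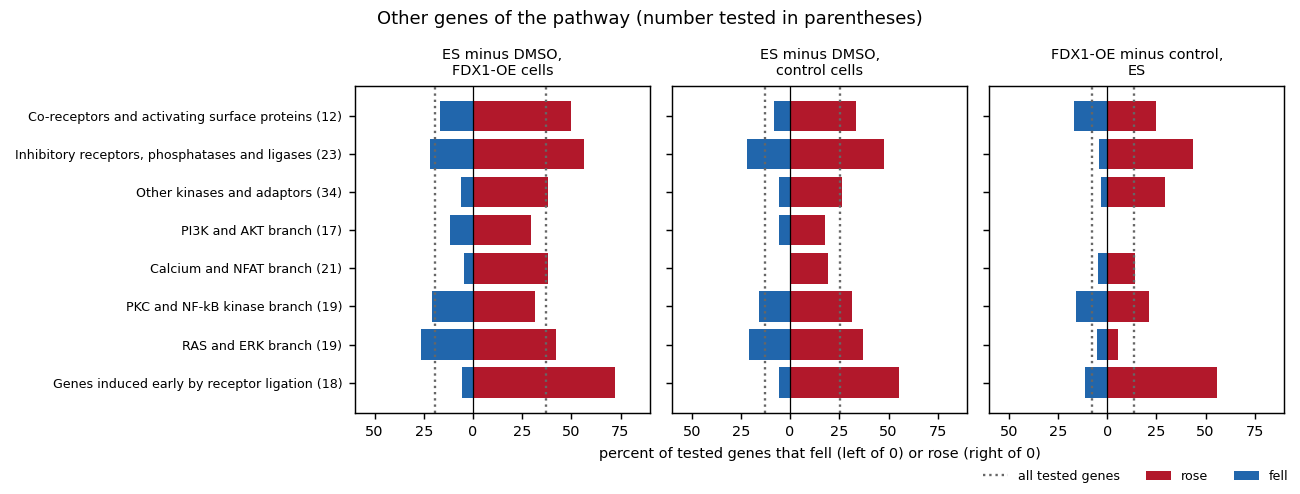
Share of tested genes that rose (right) or fell (left) at a limma adjusted p under 0.05, in percent, for 7 lists of pathway genes and for genes induced early by receptor ligation (rows, with the number tested), in 3 comparisons. Dotted lines mark the same shares over all 9805 tested genes; the bars of the early-induced genes reach farthest to the right in each panel.

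Genes that receptor ligation is known to induce early form a list of 26 apart from the 8 above, of which 18 passed the filter and were tested. The filter, 1 FPKM in 2 libraries, can be passed through the ES libraries alone, which favours risen genes. The list was also chosen with earlier results of these data known. Of these 18, 13 rose and 1 fell under ES in FDX1-OE cells, beside 37% and 19.2% of all tested genes. Their median log2 change was 0.73, beside 0.09 over all tested genes. In control cells 10 rose and 1 fell, with a median of 0.43, beside 0.06 over all tested genes, of which 25.5% rose and 12.9% fell. RLE scaling gave 12 and 2 in FDX1-OE cells and 10 and 1 in control cells. The interaction called 6, all positive, where 3.25% of all tested genes were called positive and 1.05% negative. CD83, a surface marker of activated B cells, rose under ES from a mean of 13.4 to 35.7 FPKM in FDX1-OE cells. In control cells it rose from 14.8 to 25.2 FPKM. BCL2A1, an anti-apoptotic gene, rose from a mean of 9.12 to 43.9 FPKM in FDX1-OE cells and from 7.03 to 17.2 FPKM in control cells. CCL3, a chemokine, had 6.71 and 6.80 FPKM in FDX1-OE cells in ES and 1.91 and 1.78 FPKM in control cells in ES, with an interaction of 1.41 (limma adjusted p = 0.00121). MYC fell instead (log2 change -0.57 in FDX1-OE and -0.24 in control cells), and EGR1 and NR4A1, among the earliest of these genes, were lower in FDX1-OE than in control cells in ES (-0.78 and -0.48, limma adjusted p = 0.019 and 0.00421). These genes also answer other signals, and receptor activity itself was not measured.

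Of 13 immunoglobulin chain genes on the list, IGLL5 and JCHAIN were listed. IGLL5, which overlaps lambda constant segments so that its reads may be shared with them, had 132 and 136 FPKM in FDX1-OE cells in ES, 99.9 and 102 FPKM in FDX1-OE cells in DMSO, 179 and 172 FPKM in control cells in ES, and 115 and 118 FPKM in control cells in DMSO. It rose under ES in both kinds of cell (log2 change 0.40 in FDX1-OE and 0.59 in control cells) and was lower in FDX1-OE than in control cells in ES (-0.39, limma adjusted p = 0.000583). The other immunoglobulin chains were not analysed here, so the receptor's antigen-binding part is not described.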

How the data were processed

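The authors deposited FPKM values for 15597 genes in each of 8 libraries; the headers give no unit, and FPKM was read from the values, which were whole multiples of a step set by gene length and library total. Per the submitters' processing notes, HISAT2, HTSeq, R 3.2.0 and hg19 were used, with roles not given in the sources used here. Whole reads were recovered from the steps for 100% of genes within 0.02 read; columns of other samples numbered 0. Groups were tested with limma 3.58.1 (R 4.3.3) on log2(FPKM + 1): 4 group means fitted to 8 libraries (4 residual and 6.6 prior degrees of freedom), empirical Bayes with a mean trend, two-sided, Benjamini-Hochberg over the 9805 genes that reached 1 FPKM in 2 or more libraries. All 9 members passed that filter. Intervals are 95%. Scripts were tested on simulated data.

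No exact permutation test was run, since with 2 libraries on each side its smallest two-sided p is 0.33. Replicates differed beyond counting noise (chi-square per gene 6.78 to 10.4), so no pair was taken for copies of the same library; this does not show separate cultures. Counts of reads cover counting error only. The members and lists were chosen with earlier results of these data known. Named genes were all members, for each list and comparison at most the 2 risen and 2 fallen genes of smallest adjusted p, FDX1, and for each member the 2 genes most like it; some genes that this rule selects are not reported here. Promoter windows came from RefSeq (GRCh38.p14) for 6 of 9 members. Alternatives were RLE scaling, a pseudocount of 0.1, no filter, a mean of at least 5 FPKM, voom on recovered reads, no mean trend, only the libraries compared, a replicate block, and leaving out each library.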

Additional observations from a re-analysis of the deposited data

How the results depend on the processing

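Of 567 member values under alternatives, 533 kept their direction and side of the threshold, 16 lost a call, 7 gained one and 11 changed sign, all of them values not called. Under RLE scaling the sign changed for PLCG2 (-0.0108) and CD81 (-0.0369) in ES against DMSO in FDX1-OE cells, for CD79B (-0.0271) in ES against DMSO in control cells, and for CD22 (-0.0018) and CD81 (-0.00091) in FDX1-OE against control cells in ES. With 1 library left out it changed for PLCG2 under ES in control cells (-0.0614 to 0.0524, above 0 without control DMSO replicate 2 or control ES replicate 2), BTK in FDX1-OE against control cells in DMSO (-0.151 to 0.0147, above 0 without FDX1-OE DMSO replicate 1), CD79B in FDX1-OE against control cells in ES (-0.0578 to 0.0493, above 0 without control ES replicate 1 or FDX1-OE ES replicate 2) and the interaction of BTK (-0.149 to 0.0162, above 0 without FDX1-OE DMSO replicate 2). The cause was not tested.

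The members called for FDX1-OE against control cells in ES numbered 1 to 3 with 1 library left out, and 1 (LYN) without control ES replicate 2. Over all genes, FDX1-OE against control cells in DMSO called 50, but 2 without the filter, 82 with voom and 13 to 64 with 1 library left out; the other comparison of these cells, in ES, called 2094, but 740 to 1802. The interaction called 422, but 222 with a pseudocount of 0.1, 176 without the filter, 639 with voom, 278 without the mean trend and 93 to 625 with 1 library left out. Leaving out a library leaves a group with 1, assumed to vary like the others. The fit to only the libraries compared gave no interaction, which needs all 8.

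Deviations of same-numbered replicates had r from -0.18 to 0.18 over the pairs of groups. A small r does not exclude pairing, so whether the numbers pair the samples is not settled, and the main fit used no pairing. With a replicate block, 6, 3, 0, 3 and 0 members were called in the 5 comparisons, as without it. All genes called numbered 5575, 3804, 56, 2173 and 526, against 5510, 3767, 50, 2094 and 422 without it.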

Other observations

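For each member, the 2 genes whose log2(FPKM + 1) had the highest Pearson r with it over the 8 libraries were sought among 7087 genes with a mean of at least 5 FPKM. The 8 points share the same 4 groups, so these values describe likeness of pattern and carry no test. CD79A was most like TMEM14C and FAM234A (both r = 0.996), and CD22 was most like NETO2 and SERINC3 (0.99 and 0.988). LYN was most like SMAD3 and UBE2Z (both 0.996), BLNK was most like MCOLN2 and ZNF3 (0.993 and 0.984), and PLCG2 was most like MACF1 and POLG (0.996 and 0.986). Values were lower for CD79B with MYL6 and REC8 (0.979 and 0.971), SYK with VPS13A and PAG1 (0.982 and 0.976), BTK with ACSL4 and PSME4 (0.971 and 0.970), and CD81 with TPRA1 and PTPA (0.963 and 0.953). No member was among the genes most like another.

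Some markers of other cells were present beside those near 0. CD247, a T-cell receptor chain, lay between 12.1 and 22.7 FPKM and CD3E between 3.91 and 8.32 FPKM, while CD3D and CD3G stayed under 0.1 FPKM, and DCN, a stromal proteoglycan, lay between 9.15 and 15.4 FPKM.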
